A study of Rattus norvegicus with 4 samples.

Results

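The genes described here encode the enzymes and core subunits that write, maintain or remove 2 repressive chromatin marks, methylation of lysine 27 of histone H3 and methylation of cytosine in DNA. They were chosen by name, and all 10 were found among the 15731 genes listed, each under 1 Ensembl identifier. Ezh1, Ezh2, Eed and Suz12 belong to Polycomb repressive complex 2 (PRC2), Dnmt1, Dnmt3a, Dnmt3b and Uhrf1 to the DNA methylation machinery, and Tet2 and Tet3 to the enzymes that oxidize methylcytosine. Ezh2, Dnmt1 and Uhrf1 are described apart from the other 7 genes, because their transcription is known to follow DNA replication in many cell types.

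PRC2 methylates lysine 27 of histone H3 through one of its alternative catalytic subunits, EZH1 or EZH2, which need EED and SUZ12 for a stable and active complex. EZH2 is the form of dividing and embryonic cells, while EZH1 is the usual form of cells that have left the cell cycle, and heart muscle cells make this transition after birth. DNA methylation is copied after each round of replication by DNMT1, which UHRF1 brings to newly made, hemimethylated DNA. DNMT3A and DNMT3B set new methylation, and TET2 and TET3 start its removal by oxidizing methylcytosine.

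RNA was sequenced from cultures of ventricular cardiomyocytes of wild type Wistar rats, taken at postnatal day 1, that had received a synthetic mimic of a member of the miR-106b~25 cluster. The mimics were hsa-miR-25-3p, hsa-miR-93-5p and hsa-miR-106b-5p, and the control mimic was cel-miR-67, a miRNA of the worm Caenorhabditis elegans. All 4 cultures were transfected with Lipofectamine RNAiMAX 1 day after seeding, and RNA was taken 72 h after transfection. One label gives the final mimic concentration as 25 nM and another gives the same figure in mM, and the day of isolation also differs between labels, as day 0 or day 1. Each mimic gave 1 library, so no difference below has a replicate check and no p-value is given. The cultures were depleted of other cells only by preplating, a step in which faster adhering cells are left behind on a dish. In these bulk samples, fewer cells of a type and less RNA per cell cannot be told apart.

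The values are RPKM, read numbers divided by gene length and library size, which allows levels of different genes to be set beside each other. Reads on listed genes ranged from 15175184 with cel-miR-67 to 18797233 with miR-106b. A fold change is the ratio of the RPKM of 1 library over another, with no pseudocount. A gene was compared where RPKM was above 1 in both libraries, and counted as higher or lower where the ratio was past 1.3-fold, which is 0.38 on the log2 scale. Intervals are 95% exact (Clopper-Pearson) intervals from the whole reads behind the RPKM values. They reflect counting error alone, and the spread between cultures is not in them.

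The mature sequences of the rat miRNAs of the cluster are shown because they place the mimics in 2 seed families. They are from RefSeq on GRCr8, all on the minus strand of chromosome 12, at chr12:22157103-22157123 for miR-106b, chr12:22156894-22156916 for miR-93 and chr12:22156652-22156673 for miR-25. Capitals mark the seed, bases 2 to 8, with which a miRNA mainly pairs with its targets.
rno-miR-106b-5p: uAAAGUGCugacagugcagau
rno-miR-93-5p: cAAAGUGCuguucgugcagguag
rno-miR-25-3p: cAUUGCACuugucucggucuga
The seeds of miR-106b and miR-93 are the same, AAAGUGC, and that of miR-25 is AUUGCAC. The transfected mimics carried the human names, and their sequences were not analysed here.

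Promoter windows were searched because Ezh2, Dnmt1 and Uhrf1 are textbook targets of E2F factors, which switch on genes for DNA replication. RefSeq gave windows of 300 bases, 250 before to 50 after an annotated start on GRCr8, for 8 of the 10 genes, with 3 starts for Uhrf1 and 4 for Tet3. None was given for Ezh1 and Dnmt3b. The words TTTGGCGC, TTTCCCGC, TTTCGCGC and TTTGCCGC, which are common forms of the E2F motif, were searched on both strands. At least 1 of them was in the windows of Ezh2, Dnmt1, Uhrf1 and Suz12, and none was in those of Eed, Dnmt3a, Tet2 and Tet3. Stretches of 30 bases around the words are shown on the strand of the gene, with the word or its reverse complement in capitals.
Ezh2, minus strand, chr4:77687156-77687185: gggctgctgcgTTTGGCGCtcggtccggtc
Dnmt1, minus strand, chr8:27762798-27762827: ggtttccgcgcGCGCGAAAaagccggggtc
Uhrf1, plus strand, chr9:1222982-1223011: ccgctaagttcGCGGGAAActcgcgcggtc
Uhrf1, plus strand, chr9:1223076-1223105: cccgagtcgggTTTCGCGCgccctggcgtc
Suz12, plus strand, chr10:65464759-65464788: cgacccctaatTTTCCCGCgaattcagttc
The word began at base 10 after the start in Ezh2 and at base 26 in Dnmt1. Of all 33469 windows of rat genes, 2.14% held at least 1 of the 4 words. Counted by gene, 2.37% of 27457 genes had a word in any of their windows. All 4 words contain CpG, and the windows that held one here had 17 to 38 CpG, beside a median of 7 over all windows. A list of 30 genes of S phase, the replication phase of the cell cycle, had windows for 25 genes, of which 15 held a word. A match is a description of the letters and not evidence of binding.

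The miR-25 culture had the lowest level of 6 of the 10 genes, and Uhrf1 differed most between libraries. With miR-25, Ezh2, Dnmt1 and Uhrf1 were each lower than with any other mimic, by 1.83-fold to 2.52-fold relative to cel-miR-67. With miR-106b, Ezh2 and Uhrf1 were slightly higher than with cel-miR-67, and with miR-93 both lay between these libraries. Ezh1 was lower than in the control with each of the 3 mimics, while Dnmt3a and Dnmt3b were at higher levels with each of them. Tet2 and Tet3 had their highest level in the control library.

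**Figure D1:**
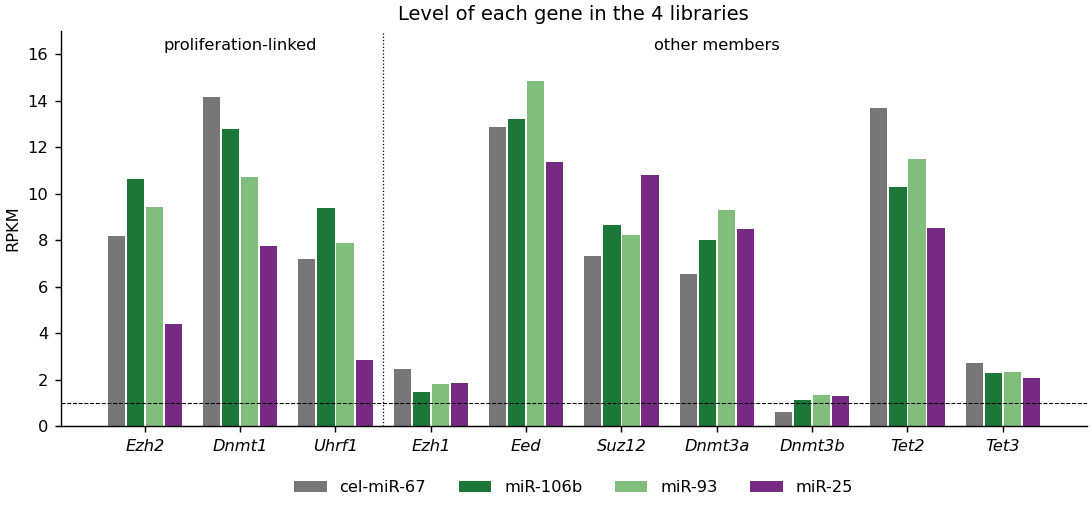
Level of each gene in RPKM (bars, linear axis from 0) in the 4 libraries, 1 library per mimic, with Ezh2, Dnmt1 and Uhrf1 left of the dotted line and the dashed line at RPKM 1. The miR-25 bars of Ezh2, Dnmt1 and Uhrf1 are the lowest of their genes, at 4.40, 7.76 and 2.85, and only the control bar of Dnmt3b is below the dashed line.

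Of the 9 genes that could be compared with the control, 2 were higher and 2 lower with miR-106b, where 11.9% of 11296 genes were higher and 12.7% lower. In the miR-93 library 1 was higher and 2 were lower, where 15.1% of 11280 genes were higher and 15.6% lower. With miR-25, 1 was higher and 6 were lower, where 19.3% of 11198 genes were higher and 22.6% lower. The median of the 9 log2 fold changes was 0.04 for miR-106b, 0.13 for miR-93 and -0.41 for miR-25, beside -0.003, -0.002 and -0.012 over all genes compared. The 3 comparisons share the control library. Scaling to the reads on listed genes instead of the library size behind the RPKM values moved the median gene to 0.08, 0.14 and 0.14 for the 3 mimics, and the shares of higher and lower genes to 16.7% and 9.08%, 25.1% and 9.65%, and 29.3% and 15.9%. Under that scaling 2 genes were higher and 1 lower with miR-106b, 1 higher and 0 lower with miR-93, and 2 higher and 4 lower with miR-25, and the 4 were Ezh2, Dnmt1, Uhrf1 and Tet2.

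**Figure D2:**
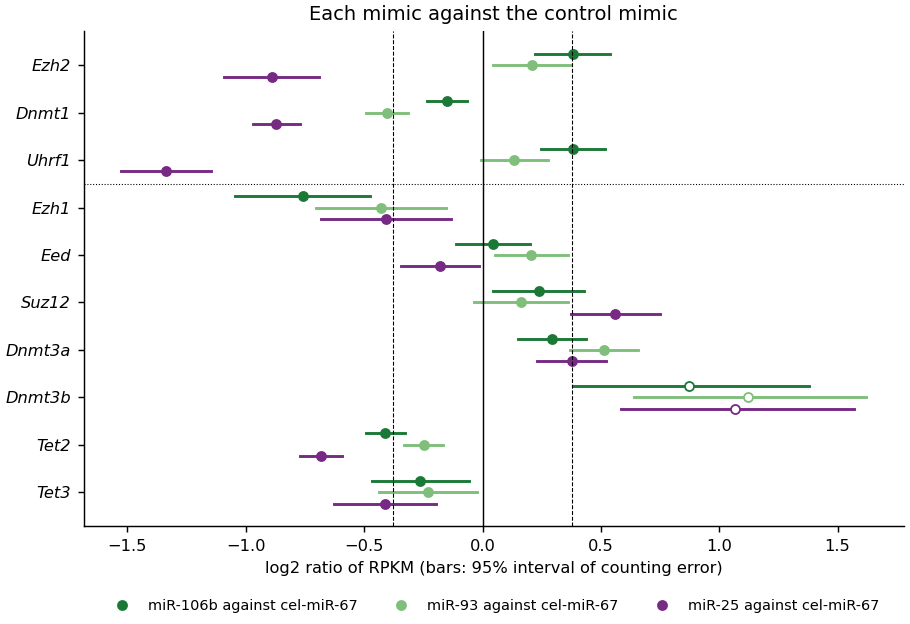
The log2 ratio of RPKM over cel-miR-67 (points) with the 95% interval of counting error (bars) for the 3 mimics. Open points mark Dnmt3b, which was under RPKM 1 in the control, and dashed lines mark 1.3-fold. The miR-25 points of Ezh2, Dnmt1 and Uhrf1 lie between -1.34 and -0.87, and all 3 points of Ezh1 lie left of the lower dashed line.

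Ezh2 (ENSRNOG00000006048), the catalytic subunit of PRC2 in dividing cells, was at RPKM 10.6 with miR-106b (883 reads), 9.43 with miR-93 (720 reads), 4.40 with miR-25 (335 reads) and 8.16 with cel-miR-67 (517 reads). The miR-25 library stood apart below the other 3. The log2 fold change over the control was -0.89 with miR-25 (interval -1.09 to -0.69), and 6.75% of genes compared had a lower value. With miR-106b the ratio was 1.302, only just past the cutoff, and its log2 value was 0.38 (0.22 to 0.54). With miR-93 the log2 value was 0.21 (0.04 to 0.37), inside the cutoff.

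Ezh1 (ENSRNOG00000020336), the alternative catalytic subunit, was at RPKM 1.45 with miR-106b (183 reads), 1.82 with miR-93 (211 reads), 1.85 with miR-25 (214 reads) and 2.45 with cel-miR-67 (236 reads). It was the only one of the 9 genes compared that was past the cutoff with all 3 mimics. With RPKM above 2 required, it could not be compared with any mimic. At 1.5-fold or with a pseudocount of 1, it was past the cutoff only with miR-106b. The log2 ratio to the control was -0.41 for miR-25 (-0.68 to -0.13), -0.43 for miR-93 (-0.71 to -0.16) and -0.76 for miR-106b (-1.05 to -0.47). Between mimics, Ezh1 was 1.26-fold higher with miR-93 and 1.28-fold higher with miR-25 than with miR-106b, both inside the cutoff. Under the scaling to reads on listed genes, it was no longer past the cutoff with miR-93, at a log2 value of -0.28, nor with miR-25, at -0.26.

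Since RPKM is per length, the catalytic subunits can be set against each other within a library. The level of Ezh2 was 3.33 times that of Ezh1 with cel-miR-67 (2.85 to 3.9), 7.33 times with miR-106b (6.25 to 8.64), 5.18 times with miR-93 (4.44 to 6.07) and 2.38 times with miR-25 (2.00 to 2.84). The counting intervals of the 4 ratios did not overlap, though those of cel-miR-67 and miR-25 nearly met. With a pseudocount of 1, the ratios were 2.65, 4.75, 3.70 and 1.89 in that order of libraries, each below its counting interval. Ezh2 made up 76.9% of the summed level of the pair in the control, 88.0% in the miR-106b library, 83.8% in the miR-93 library and 70.4% in the miR-25 library. The sum was 10.6, 12.1, 11.3 and 6.25 RPKM in the same order.

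**Figure D3:**
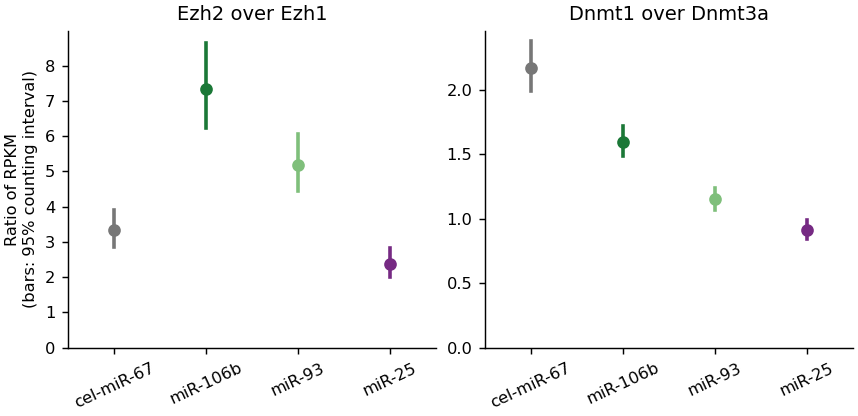
Ratio of RPKM within each library (points, linear axis from 0, with 95% counting intervals) of Ezh2 over Ezh1 on the left and Dnmt1 over Dnmt3a on the right. The Ezh2 over Ezh1 ratio is highest with miR-106b, at 7.33, and lowest with miR-25, at 2.38, and the Dnmt1 over Dnmt3a ratio is highest with cel-miR-67, at 2.17, and lowest with miR-25, at 0.915.

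Of the core subunits of PRC2, Eed was lowest and Suz12 highest in the miR-25 library. Eed (ENSRNOG00000017509), which binds methylated lysine 27 and stimulates the enzyme, was at RPKM 13.2 with miR-106b (793 reads), 14.8 with miR-93 (816 reads), 11.4 with miR-25 (623 reads) and 12.9 with cel-miR-67 (587 reads). All 3 ratios to the control were inside the cutoff, with log2 values of 0.04, 0.21 and -0.18, the last with an interval of -0.34 to -0.01. Suz12 (ENSRNOG00000058663), which holds the complex together, was at RPKM 8.65 with miR-106b (572 reads), 8.22 with miR-93 (499 reads), 10.8 with miR-25 (656 reads) and 7.34 with cel-miR-67 (370 reads). Its log2 ratio to the control was 0.56 with miR-25 (0.37 to 0.75), past the cutoff, and 0.24 and 0.16 with miR-106b and miR-93, inside it. Suz12 stood at 0.953 times the level of Eed with miR-25 (0.853 to 1.07), and at 0.554 to 0.653 times in the other 3 libraries. In the miR-25 library, Ezh2 was at its lowest level of the 4 libraries and Suz12 at its highest.

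Dnmt1 (ENSRNOG00000039859), the maintenance methyltransferase, was at RPKM 12.8 with miR-106b (2544 reads), 10.7 with miR-93 (1960 reads), 7.76 with miR-25 (1414 reads) and 14.2 with cel-miR-67 (2151 reads). Unlike Ezh2 and Uhrf1, it was highest in the control library, and no mimic had a level above it. The log2 fold change was -0.87 with miR-25 (-0.97 to -0.77) and -0.40 with miR-93 (-0.49 to -0.31). With miR-106b it was -0.15 (-0.23 to -0.07), inside the cutoff. The miR-93 value was no longer past the cutoff when scaled to reads on listed genes, at -0.26.

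Uhrf1 (ENSRNOG00000048411), which recruits DNMT1 to hemimethylated DNA, was at RPKM 9.37 with miR-106b (1216 reads), 7.90 with miR-93 (941 reads), 2.85 with miR-25 (339 reads) and 7.20 with cel-miR-67 (712 reads). Its highest level was 3.29 times its lowest, the widest range of the 10 genes. The log2 fold change with miR-25 was -1.34 (-1.53 to -1.15), and 2.38% of genes compared had a lower value. With miR-106b the ratio was 1.302, again only just past the cutoff, and with miR-93 the log2 value was 0.13 (-0.01 to 0.28). Dnmt1 was at 2.72 times the level of Uhrf1 with miR-25 (2.42 to 3.07), 1.97 times with cel-miR-67, 1.36 times with miR-93 and 1.37 times with miR-106b.

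Among the writers of new methylation, Dnmt3a (ENSRNOG00000026649) was at RPKM 8.0 with miR-106b (1021 reads), 9.31 with miR-93 (1091 reads), 8.48 with miR-25 (991 reads) and 6.53 with cel-miR-67 (635 reads). The control library had the lowest level, and the log2 fold changes were 0.29 (0.15 to 0.44), 0.51 (0.37 to 0.66) and 0.38 (0.23 to 0.52) in the order given. Only the miR-93 value was past the cutoff, since the miR-25 ratio was 1.298. The miR-25 value was past it when log2 ratios were centred on their median, at 0.39, and when scaled to reads on listed genes, at 0.52. Dnmt3b (ENSRNOG00000010625), its paralog, was the least abundant of the 10 genes, at RPKM 1.14 with miR-106b (120 reads), 1.35 with miR-93 (131 reads), 1.3 with miR-25 (126 reads) and 0.622 with cel-miR-67 (50 reads). It was not compared by the rule because its control level was below RPKM 1. Its log2 ratios to the control were 0.87 (0.38 to 1.38), 1.12 (0.64 to 1.62) and 1.07 (0.58 to 1.57) in the same order, so all 3 mimic libraries lay above the control beyond counting error.

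With each mimic, Dnmt1 RNA was below and Dnmt3a RNA above the control. Their ratio thus differed more between libraries than the summed level did. Dnmt1 was at 2.17 times the level of Dnmt3a with cel-miR-67 (1.99 to 2.38), 1.6 times with miR-106b (1.49 to 1.72), 1.15 times with miR-93 (1.07 to 1.24) and 0.915 times with miR-25 (0.843 to 0.994). Only in the miR-25 library was the RPKM of Dnmt3a above that of Dnmt1. The margin was narrow, and the interval covers counting error but not the gene lengths used. The summed level of Dnmt1, Dnmt3a and Dnmt3b was 17.5 RPKM with miR-25, and 21.9, 21.4 and 21.3 RPKM with miR-106b, miR-93 and the control.

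Tet2 (ENSRNOG00000023579), one of the dioxygenases that oxidize methylcytosine, was at RPKM 10.3 with miR-106b (2375 reads), 11.5 with miR-93 (2441 reads), 8.52 with miR-25 (1802 reads) and 13.7 with cel-miR-67 (2408 reads). The log2 fold change was -0.41 with miR-106b (-0.49 to -0.33) and -0.68 with miR-25 (-0.77 to -0.59), both past the cutoff, and -0.25 with miR-93. Scaled to reads on listed genes, the miR-106b value was -0.33 and no longer past the cutoff. Tet3 (ENSRNOG00000011387), its paralog, was less abundant, at RPKM 2.27 with miR-106b (411 reads), 2.33 with miR-93 (386 reads), 2.05 with miR-25 (340 reads) and 2.73 with cel-miR-67 (376 reads). Only the miR-25 value was past the cutoff, at a log2 value of -0.41 (-0.63 to -0.20), and it was inside it when scaled to reads on listed genes. Tet2 stood at 4.15 to 5.01 times the level of Tet3 in the 4 libraries, so the order of the pair was the same in each.

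The mimics were next compared with each other, without the control library. Between miR-93 and miR-106b, which share a seed, none of the 10 genes was past the cutoff, where the share of 11391 genes was 7.3% above and 8.21% below the cutoff. The log2 ratios of miR-93 over miR-106b ran from -0.25 for Dnmt1 to 0.33 for Ezh1. The counting interval was below 0 for 3 of the 10 genes, where 23% of all genes had such an interval. The 3 were Ezh2, Dnmt1 and Uhrf1, with log2 ratios of -0.17, -0.25 and -0.25. The interval was above 0 for 4 genes, Ezh1, Eed, Dnmt3a and Tet2, where the share of all genes was 21.3%. Scaled to reads on listed genes, Ezh1 was past the cutoff and higher with miR-93, where 10.4% of all genes were higher and 6.2% lower. The log2 ratios of Ezh2, Dnmt1 and Uhrf1 were then -0.11, -0.19 and -0.18, and no intervals were computed under that scaling.

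Between miR-25 and miR-106b, 3 of the 10 genes were lower with miR-25 and 0 higher, where 22.1% of 11183 genes were higher and 23% lower. The 3 were Uhrf1, Ezh2 and Dnmt1, with log2 ratios of -1.72 (-1.89 to -1.54), -1.27 (-1.46 to -1.09) and -0.72 (-0.82 to -0.63). Under both scalings to reads on listed genes the same 3 were lower, and 2 genes, Ezh1 and Suz12, were higher. Of all genes, 26.1% were then higher and 19.9% lower, or 25.4% and 20.4% when mitochondrial genes were left out of the scaling. The other 7 genes had log2 ratios from -0.27 for Tet2 to 0.35 for Ezh1. The proliferation-linked genes and the others had separate ranges in this comparison, but the genes and their split were chosen with earlier results of these data known.

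Between miR-25 and miR-93, 5 genes were lower with miR-25 and 1 was higher, where 22.1% of 11198 genes were higher and 23% lower. Uhrf1, Ezh2 and Dnmt1 had log2 ratios of -1.47 (-1.65 to -1.29), -1.10 (-1.29 to -0.91) and -0.47 (-0.57 to -0.37). Tet2 was also past the cutoff, at -0.43, as was Eed, at -0.39, while Suz12 was higher at 0.40. Here the ranges lay closer, with Dnmt1 at -0.47 next to Tet2 at -0.43. With a pseudocount of 1, Eed and Suz12 were inside the cutoff, at -0.36 and 0.36, where 18.7% of all genes were higher and 19.8% lower. Eed was also inside it when log2 ratios were centred on their median, at -0.37. At 1.5-fold only 2 genes, Uhrf1 and Ezh2, were lower and 0 higher, where 13.3% of all genes were higher and 14.3% lower.

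**Figure D4:**
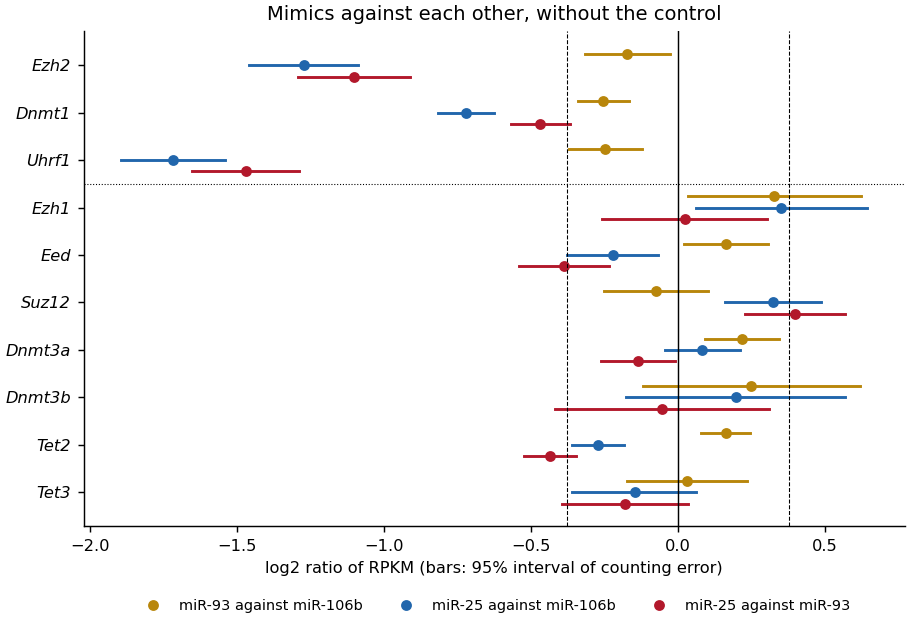
The log2 ratio of RPKM between mimics (points) with the 95% interval of counting error (bars). Dashed lines mark 1.3-fold, and Ezh2, Dnmt1 and Uhrf1 stand above the dotted line. In the miR-25 over miR-106b comparison these 3 genes lie between -1.72 and -0.72 and the other 7 between -0.27 and 0.35.

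Genes of DNA replication had low levels in the same library as Ezh2, Dnmt1 and Uhrf1. Over all genes compared with miR-25, 19.3% were higher and 22.6% lower. Of the 28 genes of the S phase list that could be compared, 24 were lower and 1 was higher with miR-25, with a median log2 fold change of -0.85, beside -0.89, -0.87 and -1.34 for Ezh2, Dnmt1 and Uhrf1. Rrm2, a subunit of ribonucleotide reductase, was lowest at -1.73 (-1.88 to -1.58), and Tyms, which makes thymidylate, was highest at 0.64. With miR-106b, 3 of 29 were higher and 1 lower, with a median of 0.15, and with miR-93 4 were higher and 3 lower, with a median of 0.00. Tk1, thymidine kinase, was highest with both, at 1.14 and 1.29. Mcm3, a subunit of the replicative helicase, was lower with all 3 mimics, at -0.40, -0.66 and -1.42. The part of the share of replicating cells in the values of Ezh2, Dnmt1 and Uhrf1 was not tested.

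Markers of the cell types in the cultures also differed between libraries. All 12 cardiomyocyte markers found were lower with miR-25, with summed RPKM of 13898, beside 24215 with cel-miR-67, 21369 with miR-106b and 16419 with miR-93. With miR-106b and miR-93, 4 and 5 of the 12 were lower and 1 was higher. Fibroblast markers summed to 386 with miR-25, with 7 of 10 lower and 1 higher, and to 714 to 899 in the other libraries. With miR-106b and with miR-93, 5 of the 10 were lower and 0 higher. Smooth muscle markers summed to 2084 with miR-25, with 6 of 8 higher and 2 lower, and to 612 to 778 in the other libraries. Macrophage markers summed to 15.9 with miR-25, with 4 of 6 compared lower, and to 22.2 to 26.4 in the others. Endothelial markers summed to 6.40 to 9.91, and red blood cell markers to 4.95 to 9.46. No marker found was at 0 in any library. Cardiomyocyte markers were present at high levels in all 4 libraries, as the cell type label states, and the part of these marker differences in the values above was not tested.

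Other genes of the Polycomb system, and the lists that follow, were read against the same shares of all genes. These were 11.9% higher and 12.7% lower with miR-106b, 15.1% higher and 15.6% lower with miR-93, and 19.3% higher and 22.6% lower with miR-25. Of the PRC2 partners, 1 of 7 was higher with miR-106b, 2 of 7 with miR-93 and 1 of 8 with miR-25, and 0 were lower with any mimic, with medians of -0.04, 0.08 and 0.09. Jarid2, an accessory subunit that helps to bring PRC2 to its sites, was higher with miR-106b at 0.56 (0.38 to 0.73) and with miR-93 at 0.56 (0.38 to 0.74), and was at 0.08 with miR-25. Aebp2, an accessory subunit of the same form of PRC2, had the opposite order, at 0.73 with miR-25 (0.52 to 0.96), 0.02 with miR-93 and -0.04 with miR-106b. The histone binding subunit Rbbp7 had the lowest value with miR-93 and with miR-25, at -0.24 and -0.20, and Lcor the lowest with miR-106b, at -0.11.

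For Polycomb repressive complex 1, which adds ubiquitin to histone H2A, 20 genes could be compared with each mimic. Of these, 4 were higher and 1 lower with miR-106b, 3 higher and 2 lower with miR-93, and 3 higher and 1 lower with miR-25, with medians of 0.10, 0.13 and 0.09. Pcgf6, a subunit of a noncanonical form, was higher with all 3 mimics, at 0.51 (0.14 to 0.88), 0.79 (0.43 to 1.16) and 0.40 (0.02 to 0.78). L3mbtl2 was lowest with miR-106b at -0.46, Pcgf5 lowest with miR-93 at -0.59 and Bcor lowest with miR-25 at -0.38, while Cbx6, a chromobox reader of methylated histone, was highest with miR-25 at 0.54. Among 6 opponents of Polycomb that could be compared, 0 were past the cutoff with miR-106b, and 1 was higher with each of the others, namely Kmt2c with miR-93 at 0.57 (0.21 to 0.94) and Kmt2a with miR-25 at 0.40 (0.08 to 0.74). Asxl2 had the lowest value with each mimic, from -0.31 to -0.21, and Bap1, the H2A deubiquitinase, the highest with miR-106b at 0.30.

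Among the partners of DNA methylation, Zbtb4, a reader of methylated CpG, had the lowest value with both miR-106b and miR-93. It was at RPKM 5.45 in the control, 2.06 and 2.10 in the miR-106b and miR-93 libraries and 6.90 in the miR-25 library. Its log2 fold changes in that order were -1.40 (-1.66 to -1.15), -1.38 (-1.64 to -1.12) and 0.34 (0.16 to 0.53). Zbtb38, a related reader that was named after its values were seen, had log2 values of -0.73, -0.89 and 0.14. Over the list, 2 of 18 genes were higher and 3 lower with miR-106b, 4 higher and 2 lower with miR-93, and 1 of 17 higher and 2 lower with miR-25, with medians of 0.17, 0.15 and 0.06.

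Zfp57, which protects methylation at imprinted sites, was higher with all 3 mimics, at 0.61 (0.39 to 0.83), 0.52 (0.29 to 0.75) and 0.86 (0.64 to 1.08). Mbd4, a methyl-CpG binding glycosylase, was highest with miR-93 at 0.59 (0.18 to 1.00). The lower genes of those compared with miR-25 were Hells and Cdca7. Hells, a remodeller needed for DNA methylation, was at -0.88 (-1.05 to -0.71). Cdca7, its activator, was at -0.64 (-0.97 to -0.32). These values stood beside the -0.87 of Dnmt1 with that mimic. Cdca7l, in the same list, was not compared with miR-25 because it was below RPKM 1 there, at 0.897 beside 2.46 in the control. Tet1, the other TET dioxygenase, was at -0.40 with miR-106b and at 0.06 with both others, and Uhrf2, the paralog of Uhrf1, at 0.21, 0.47 and 0.17 for the 3 mimics in the order above. With miR-25, Uhrf2 lay above the control level and Uhrf1 below it. Cdca7, Cdca7l, Tet1 and Uhrf2 were also named after their values were seen.

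Histone and DNA methyltransferases use S-adenosylmethionine as the methyl donor, and 9 genes of its supply were measured. With miR-106b 0 were higher and 3 lower, with miR-93 0 higher and 2 lower, and with miR-25 2 higher and 5 lower, with medians of -0.15, -0.23 and -0.44. Mtr, methionine synthase, was lower with all 3 mimics, at -0.53 (-0.66 to -0.41), -0.69 (-0.82 to -0.56) and -0.60 (-0.73 to -0.48). Its partner Mtrr, which reactivates the enzyme, had the lowest value with miR-106b, at -0.58. Shmt1, an enzyme of folate metabolism, was the lowest with miR-25, at -0.69, and Mthfd1 was the highest with miR-106b and miR-93, at 0.29 and 0.32.

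**Figure D5:**
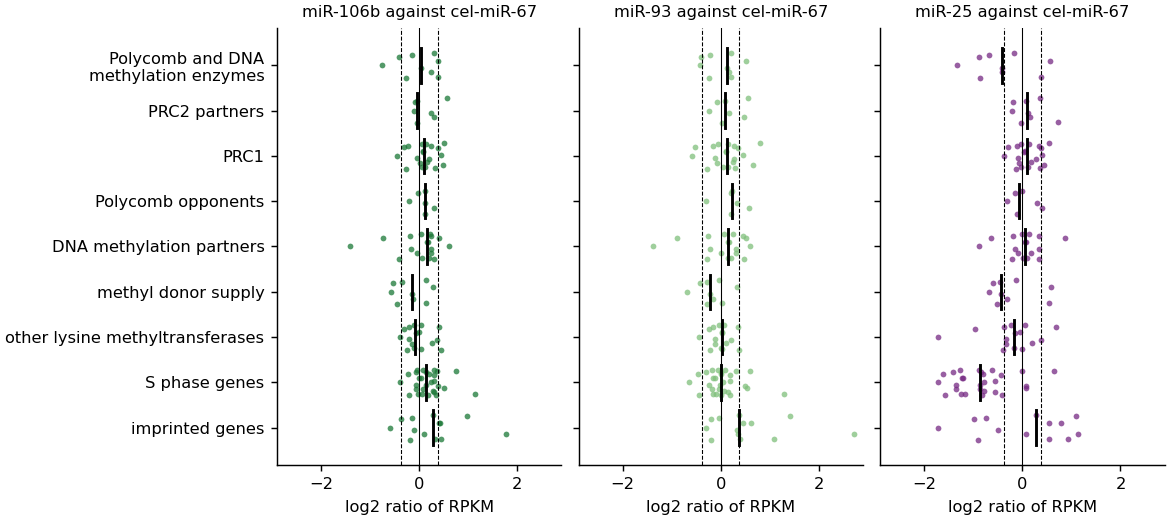
The log2 ratio of RPKM over cel-miR-67 of each gene compared (points, spread vertically for legibility) and the median (black bars) in each gene list, with 1 panel per mimic and dashed lines at 1.3-fold. In the miR-25 panel the S phase median is -0.85 and that of the Polycomb and DNA methylation enzymes is -0.41, beside medians of 0.09 for PRC2 partners and for PRC1.

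Methyltransferases for other histone lysines were past the cutoff in both directions with each mimic. Of 16 compared, 2 were higher and 1 lower with miR-106b and 1 higher and 1 lower with miR-93, and of 15 compared 1 was higher and 3 lower with miR-25, with medians of -0.09, 0.01 and -0.16. Smyd1, a methyltransferase of heart and skeletal muscle, was lowest with miR-25 at -1.72 (-1.89 to -1.57) and with miR-106b at -0.39. Dot1l, which methylates lysine 79 of histone H3, was lowest with miR-93 at -0.45 and was at -0.98 with miR-25. Suv39h1, listed under an older symbol, was highest with miR-106b and miR-93, at 0.44 and 0.38, and Setdb2 highest with miR-25, at 0.69.

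For 4 of the genes, the genes with the most similar log2 fold changes over the 3 mimics were found by Euclidean distance, among 6486 genes with RPKM above 5 in all 4 libraries. The distance rests on 3 values that share the control library and is a description. In the miR-25 library Ezh2, Uhrf1 and Ezh1 were themselves under this level, at RPKM 4.40, 2.85 and 1.85. Genes as low as these were not searched. Nearest to Ezh2 were Gins4, a replication factor, Mthfd2 and Cox6c, at distances of 0.09 to 0.12. Nearest to Dnmt1 were Fam65b, Atad2 and Oxct1, at 0.06 to 0.09, and nearest to Uhrf1 were AABR07065445.1, Mcm6, a subunit of the replicative helicase, and Ifi27l2b, at 0.15 to 0.21. Nearest to Ezh1 were Cidea, Efr3a and Hsd17b10, at 0.09 to 0.18.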

How the data were processed

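Total RNA of 4 cardiomyocyte cultures, 1 per mimic, was sequenced as single reads. According to the methods and the submitters' processing notes, the authors ran FASTQC and Cutadapt on the reads, mapped them to Rnor 6.0 with STAR 2.7, rounded gene counts and deposited RPKM values made with edgeR. The counting program is not given in the sources used here. Values for each sample were identical to those of the table of the whole series.

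Ratios were taken from RPKM without a pseudocount. Whole reads were recovered from the RPKM steps for 15728 of 15731 genes, with gene lengths whole within 0.001; a divisor shared by a gene's reads and its length cannot be seen, and then the interval is too wide. The recovery and the intervals were checked on simulated data. Listed genes held 60.4% to 66.9% of the library sizes behind the RPKM values.

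The genes and lists were chosen with earlier results of these data known. Named genes were the 10 genes, from each list the highest and lowest gene for each mimic and those past 1.3-fold in 1 direction with all 3, and the nearest 3 genes of Ezh2, Dnmt1, Uhrf1 and Ezh1. Symbols listed more than once, 176 in all, were left out of lists. A gene that this rule selects is not reported here. The alternatives were RPKM above 2, none or in either library, cutoffs of 1.5-fold and 2-fold, a pseudocount of 0.1 or 1, log2 ratios centred on their median, and the reads on listed genes as library size, with and without 13 mitochondrial genes. Python 3.11.15 was used.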

Additional observations from a re-analysis of the deposited data

How the results depend on the processing

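No paired analysis was possible because each mimic has 1 library, and for the same reason no library could be left out. No value past the cutoff changed direction under any alternative run. With miR-106b, the 2 higher genes, Ezh2 and Uhrf1, became 0 at 1.5-fold, at 2-fold and with a pseudocount of 0.1 or 1, and 3 with no RPKM cutoff or RPKM above 1 in either library, where Dnmt3b entered. The 2 lower genes became 1 with RPKM above 2, at 1.5-fold and with both scalings to reads on listed genes, and 0 at 2-fold. The shares of all genes compared changed too, to 5.21% higher and 5.73% lower at 1.5-fold. At 2-fold they were 1.23% and 1.33%. Pseudocounts of 0.1 and 1 left 11.5% and 8.86% of all genes higher. With no RPKM cutoff 18% of all genes were higher, and with RPKM above 1 in either library 13.3%. The share lower was 11.8% with RPKM above 2, and 9.08% and 9.61% under both scalings. With miR-93, the 1 higher gene became 2 with no RPKM cutoff or RPKM above 1 in either library, where Dnmt3b also entered, and 0 at 1.5-fold and 2-fold. Its 2 lower genes became 1 with RPKM above 2, where Ezh1 could not be compared. They became 0 at 1.5-fold, at 2-fold, with a pseudocount of 1 and with both scalings. Over all genes compared for this mimic, 6.92% were higher and 8.35% lower at 1.5-fold. At 2-fold 1.7% were higher and 2.56% lower, and a pseudocount of 1 left 12.8% lower. The share higher was 21% with no RPKM cutoff and 17% with RPKM above 1 in either library. The share lower was 15% with RPKM above 2, and 9.65% and 10.1% under both scalings. With miR-25, the 1 higher gene became 2 with no RPKM cutoff, RPKM above 1 in either library, centring and both scalings, and 0 at 1.5-fold and 2-fold. Its 6 lower genes became 1 at 2-fold, Uhrf1, and were 4 to 6 otherwise. Ezh2, Dnmt1, Uhrf1 and Tet2 were among them under each alternative but the 2-fold cutoff. The share of all genes lower in this comparison fell from 22.6% to 13.7% at 1.5-fold and 5.01% at 2-fold. It was 19.6% with a pseudocount of 1, 15.9% when scaled to reads on listed genes and 26.2% with no RPKM cutoff. The share higher fell from 19.3% to 10.6% at 1.5-fold and 3.21% at 2-fold. It was 24.1% with no RPKM cutoff, 20.9% with RPKM above 1 in either library and 20.1% with centring. Under both scalings it was 29.3% and 27.5%. Dnmt3b, with 50 to 131 reads in a library, had the lowest counts of the 10 genes and the widest intervals. The spread between cultures was not measured.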

Other observations

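Textbook targets of the marks that these enzymes set were also read, as values with no explanation. Of 20 textbook targets of Polycomb, 14 were listed and 5 or 6 could be compared with each mimic. The cell cycle inhibitors Cdkn2a and Cdkn2b were higher with miR-25, at log2 fold changes of 1.13 (0.62 to 1.65) and 1.10 (0.96 to 1.25). Cdkn2b was lower with miR-93, at -0.88 (-1.08 to -0.68), while its miR-106b value was -0.24. With miR-93 the cardiac factor Tbx5 was highest, at 0.64, and Gata6, also a cardiac factor, was at 0.19, 0.62 and -0.20 for the 3 mimics. With miR-106b 0 of 6 were past the cutoff, with miR-93 2 of 5 were higher and 1 lower, and with miR-25 2 of 6 were higher and 0 lower.

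Imprinted genes, whose expression from 1 parental copy rests on DNA methylation, were read in the same way, beside the same shares of all genes. Of 13 compared, 5 were higher and 1 lower with miR-106b, 7 higher and 0 lower with miR-93, and 6 higher and 5 lower with miR-25, with medians of 0.28, 0.38 and 0.29. Cdkn1c, a cell cycle inhibitor, was at RPKM 1.5 in the control, 1.57 in the miR-25 library, 5.13 in the miR-106b library and 9.86 in the miR-93 library, with log2 fold changes of 1.77 (1.47 to 2.09), 2.72 (2.42 to 3.02) and 0.06 in the order miR-106b, miR-93, miR-25. Mest was at 0.40, 1.08 and -1.73 (-1.95 to -1.51), the lowest of the list with miR-25, and Peg3 was the highest with miR-25, at 1.13 (1.04 to 1.22). Grb10, an adaptor of growth factor receptors, and Ndn were higher with all 3 mimics, at 0.43, 0.62 and 0.78, and at 0.44, 0.38 and 0.92. Nnat had the lowest value with miR-106b, at -0.60 (-1.08 to -0.12), and Kcnq1 the lowest with miR-93, at -0.30. No readout of methylation itself was analysed here, and whether these values follow those of the enzymes was not tested.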
